A study of Mus musculus with 10 samples.

Results

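The data described here are the RNA levels of 10 transcription factor genes of the C/EBP, KLF and EBF families in mouse gonadal white adipose tissue. They were chosen by gene symbol for their known roles in making and maintaining fat cells, with earlier results of these data known. All 10 were found among the 40503 genes measured. The C/EBP members were Cebpa, Cebpb, Cebpd and Cebpg, the KLF members were Klf15, Klf4, Klf5 and Klf9, and the EBF members were Ebf1 and Ebf2. Polyadenylated RNA came from female C57BL/6 mice aged 12 weeks, with 5 animals of genotype Med19 KO, from a line called Med19-iAKO, and 5 control animals of genotype WT. For the Med19-iAKO mice the labels give tamoxifen at 100 mg/kg for 5 days and tissue collection 14 days later. The sources used here do not give whether the controls received tamoxifen, which promoter drove the deletion, in which cells, or which exons were removed. MED19 is part of Mediator, which links transcription factors to RNA polymerase II.

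These factors act in a sequence that has been worked out mainly in cultured mouse preadipocytes. C/EBPb and C/EBPd appear early after a differentiation signal, KLF4 helps to switch on Cebpb, and KLF5 follows them. They activate Cebpa and Pparg, whose products then sustain each other and the genes of the mature fat cell. KLF9 and KLF15 belong to the later phase, KLF15 being also a nutrient- and glucocorticoid-responsive regulator of the glucose transporter gene Slc2a4 and of amino acid breakdown. C/EBPg lacks an activation domain and acts as a dimer partner. EBF1 promotes adipocyte differentiation and is abundant in fat cell precursors and B lymphocytes, and EBF2 marks precursors of brown and beige fat cells. Klf4 and Klf5 are also epithelial and vascular genes, and Cebpb and Cebpd are active in myeloid cells and in acute inflammation.

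Promoter windows were held by RefSeq (GRCm38.p6) for 7 of the 10 genes, each running from 250 bases before to 50 bases after the start of transcription. The windows of the most abundant C/EBP member that changed, of its closest relative in level that did not, and of the KLF member with the largest difference are shown, a choice made after their values were seen. Capitals mark matches to 1 motif per gene. In the Cebpa window, chr7:35119043-35119342 on the plus strand, they mark the C/EBP half-site TTGCG. In the Cebpb window, chr2:167688665-167688964 on the plus strand, they mark the half-site of the cAMP response element, TGACG or CGTCA. In the Klf15 window, chr6:90462326-90462625 on the plus strand, they mark the E-box CACGTG, a motif read by USF and clock proteins.
Cebpa: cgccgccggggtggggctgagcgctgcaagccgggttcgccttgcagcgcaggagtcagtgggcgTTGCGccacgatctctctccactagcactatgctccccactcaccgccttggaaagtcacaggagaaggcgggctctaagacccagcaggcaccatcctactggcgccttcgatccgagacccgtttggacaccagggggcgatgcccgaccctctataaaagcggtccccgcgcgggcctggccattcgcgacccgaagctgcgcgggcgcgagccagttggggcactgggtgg
Cebpb: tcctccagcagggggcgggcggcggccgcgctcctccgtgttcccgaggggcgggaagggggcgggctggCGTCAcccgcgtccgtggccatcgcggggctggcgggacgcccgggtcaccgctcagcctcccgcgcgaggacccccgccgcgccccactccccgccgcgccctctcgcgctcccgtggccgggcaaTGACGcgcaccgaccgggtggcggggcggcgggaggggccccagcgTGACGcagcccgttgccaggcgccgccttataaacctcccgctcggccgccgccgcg
Klf15: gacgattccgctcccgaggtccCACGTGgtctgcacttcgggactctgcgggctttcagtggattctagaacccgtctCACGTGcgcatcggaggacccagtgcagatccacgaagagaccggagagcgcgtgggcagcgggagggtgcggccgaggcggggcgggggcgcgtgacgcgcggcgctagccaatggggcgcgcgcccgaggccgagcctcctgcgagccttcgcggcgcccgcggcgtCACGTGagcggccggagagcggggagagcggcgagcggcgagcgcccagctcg
The Cebpa window held 1 C/EBP half-site, at -185 from the start, and 17.4% of all 32851 windows held at least 1 on either strand. The Cebpb window held 3 half-sites of the cAMP response element, the nearest at -7, and such a half-site was in 20.8% of all windows. Klf15 held 3 E-boxes, at -228, -172 and -3, and 7.15% of windows held any; it also held 2 half-sites of the cAMP response element, 1 of them sharing 2 letters with the E-box at -3. The full palindromes, TTGCGCAA for C/EBP, TGACGTCA for the cAMP response element and, for EBF, TCCC and GGGA separated by any 2 bases, were in none of the member windows, against 0.183%, 1.79% and 0.904% of all windows. The GC box GGGCGG, which SP and KLF proteins read, occurred 5 times in the Cebpb window and once in that of Klf15, and at least once in 35.7% of all windows. The windows of Cebpa, Cebpb and Klf15 were 67.3%, 80.7% and 73.3% G or C, beside a median of 52.7% over all windows. The shares of all windows were not matched for this. Other member windows also held these motifs. An Ebf1 window held 2 C/EBP half-sites, and Klf4 held 1 E-box and 4 GC boxes. The half-site of the cAMP response element was also in windows of Klf4, Klf9 and Ebf1. These matches describe letters only, and binding was not measured.

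The files gave RPKM, read counts scaled by gene length and library size, and the library sizes behind them were 14460051 to 20206351 reads. No difference in Med19 RNA was detected: it averaged 6.79 ± 0.85 RPKM in KO-labelled and 6.70 ± 0.89 RPKM in WT libraries (SD, n = 5 each; 2-sided exact permutation p = 0.881, smallest possible 0.0079). The interval of its log2 change was -0.21 to 0.25, and every direction below rests on the labels. Genes were tested with limma on log2(RPKM + 0.5), and calls required p under 0.05 after Benjamini-Hochberg adjustment over the 17038 genes tested. Relative to WT, 681 genes were called higher and 332 lower. Median-ratio scaling of the libraries called 103 higher and 417 lower, quantile normalization called 149 and 392, and the median log2 change of all genes was 0.09. Defining adipocyte genes were abundant in both groups, with 6 of 7 adipocyte markers called lower.

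All 10 factors passed the filter on low values, and 1 of them, Cebpa, passed the test. It was lower in the KO-labelled libraries, and none of the 10 was called higher. Over all genes tested, 1.95% were called lower and 4.00% higher. At an unadjusted p under 0.05, Cebpa and Klf15 lay lower and Cebpd higher, which is 3 of 10 where 24.7% of all genes tested were under that level. No factor had all its KO-labelled values above all its WT values, as 6.96% of all genes did. The other 7 genes, Cebpb, Cebpg, Klf4, Klf5, Klf9, Ebf1 and Ebf2, had log2 changes between -0.22 and 0.18.

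**Figure D1:**
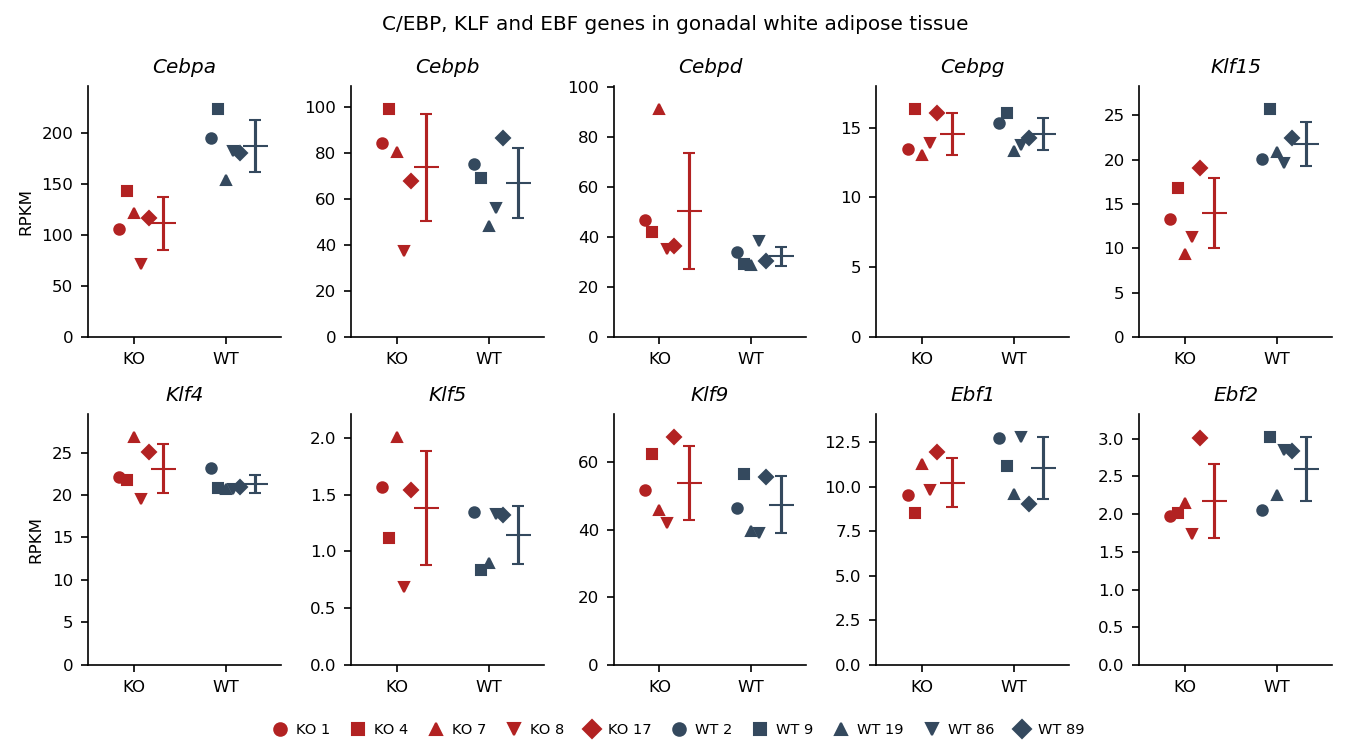
RPKM of the 10 factors in each library, KO-labelled on the left and WT on the right in each panel; symbols are single animals, and the bar beside them is the mean with its SD (n = 5 each). The KO-labelled points of Cebpa and Klf15 all lie below the WT points, and KO 7 stands above the rest in Cebpd.

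Cebpa, the factor of the terminal phase, was at 105.6, 142.9, 121.5, 72.2 and 116.9 RPKM in KO 1, KO 4, KO 7, KO 8 and KO 17, against 195.2, 223.8, 154.4, 182.8 and 181.0 RPKM in WT 2, WT 9, WT 19, WT 86 and WT 89. Each KO-labelled library lay below each WT library, as was the case for 2.15% of all genes tested. Cebpa averaged 111.8 ± 26.0 RPKM in KO-labelled and 187.5 ± 25.2 RPKM in WT libraries, and its log2 value fell by 0.77 (SE 0.17, 95% interval -1.14 to -0.39, limma adjusted p = 0.0300). The fitted level was 0.588 times that of WT, with an interval of 0.454 to 0.761. Of the 17038 genes tested, 325 had a lower log2 change than Cebpa. Between 2915 and 8652 reads per library stood behind these values, so counting error was small beside the spread between animals. The direction held in each of 18 alternative analyses and the call in 11 of them. The call ended without KO 1 (log2 change -0.76, adjusted p = 0.076), KO 17 (-0.79, 0.0528), WT 2 (-0.75, 0.0511), WT 9 (-0.70, 0.0579), WT 86 (-0.77, 0.0631) or WT 89 (-0.78, 0.0586). It also ended when low genes were kept in the test (-0.77, 0.0533).

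Cebpb, the early factor of the family and the second most abundant of the 10 genes, was at 84.5, 99.3, 80.8, 37.4 and 68.0 RPKM in KO 1, KO 4, KO 7, KO 8 and KO 17, against 75.4, 69.1, 48.4, 56.0 and 86.5 RPKM in WT 2, WT 9, WT 19, WT 86 and WT 89. The groups overlapped over most of their range, with KO 8 the lowest library of all and KO 4 the highest. Means were 74.0 ± 23.3 RPKM in KO-labelled and 67.1 ± 15.2 RPKM in WT libraries (log2 change 0.10, SE 0.25, limma adjusted p = 0.856). The 95% interval, a fitted level of 0.725 to 1.58 times that of WT, is wide and does not show that the groups were alike. The sign of this difference depended on single libraries, the log2 change being -0.02 without KO 4, -0.01 without WT 19 and 0.33 without KO 8.

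Cebpd, which is induced with Cebpb early in differentiation and by glucocorticoids and cytokines, was at 47.1, 42.0, 91.4, 35.3 and 36.6 RPKM in KO 1, KO 4, KO 7, KO 8 and KO 17. In WT 2, WT 9, WT 19, WT 86 and WT 89 it was at 34.0, 29.5, 29.0, 38.5 and 30.6 RPKM. KO 7 stood far above the other libraries, and KO 8 and KO 17 lay within the WT range. Means were 50.5 ± 23.4 RPKM in KO-labelled and 32.3 ± 4.0 RPKM in WT libraries (log2 change 0.55, SE 0.23, limma adjusted p = 0.178), and without KO 7 the log2 change was 0.31 (adjusted p = 0.138). Its only listed transcript was at 29.7 to 67.7 RPKM in KO-labelled and 21.4 to 29.3 RPKM in WT libraries. The groups were barely separate there, with KO 8 and WT 86 at the border, and the transcript was not called either (log2 change 0.63, SE 0.22, limma adjusted p = 0.394). The share of all transcripts without overlap was not counted. In KO 7 the summed RPKM of 16 immediate early genes was also the highest, 666.5 against 373.5 to 448.3 in the other KO-labelled libraries and 289.9 to 498.2 in WT. The summed RPKM of 14 glucocorticoid-responsive genes was 784.7 in KO 7, within the 781.2 to 949.2 of the KO-labelled group. The part of these genes in the Cebpd value was not tested.

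Cebpg, the dimer partner, was the steadiest of the 10 between groups. It averaged 14.6 ± 1.5 RPKM in KO-labelled and 14.5 ± 1.1 RPKM in WT libraries, and the 95% interval of its fitted ratio ran from 0.884 to 1.13 (log2 change -0.00, SE 0.08, limma adjusted p = 0.995). Cebpg and Cebpa are neighbours on chromosome 7, with 1 predicted protein-coding gene between them in RefSeq, and Slc7a10 lies on the far side of Cebpa. Within the gene pair, only Cebpa passed the test, while the difference between their changes was not itself tested.

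**Figure D2:**
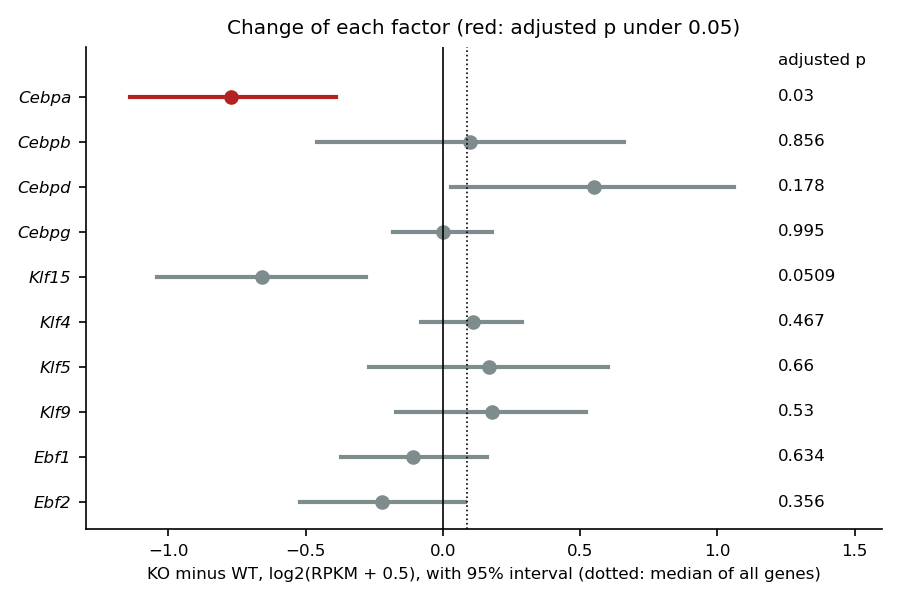
Log2 change of each factor, KO-labelled minus WT, on the log2(RPKM + 0.5) scale with its 95% interval from limma and the adjusted p over all genes at the right; the dotted line is the median of all genes. The intervals of Cebpa, Klf15 and Cebpd exclude 0, and only that of Cebpa belongs to a called gene.

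The mix of C/EBP messages is described per length and without a test. Cebpa made up 42.1%, 47.5%, 39.6%, 45.5% and 49.2% of the summed RPKM of the 4 C/EBP genes in KO 1, KO 4, KO 7, KO 8 and KO 17, against 61.0%, 66.2%, 63.0%, 62.8% and 57.95% in WT 2, WT 9, WT 19, WT 86 and WT 89. It remained the most abundant of the 10 factors in each library. Cebpd made up 14.0% to 29.8% in KO-labelled and 8.70% to 13.2% in WT libraries. The ratio of Cebpa to Cebpb was 1.25 to 1.93 in KO-labelled and 2.09 to 3.26 in WT libraries, and KO 8 and WT 89 were the nearest to each other. In KO 8, where both genes were at their lowest, the ratio was the highest of its group. The 4 genes together summed to 158.8 to 306.8 RPKM in KO-labelled and 245.2 to 338.3 RPKM in WT libraries. The sums thus overlapped while the shares of Cebpa did not. The Cebpa shares and ratios are built from Cebpa values that themselves did not overlap, and are no separate result.

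Klf15 was at 13.4, 16.8, 9.36, 11.3 and 19.1 RPKM in KO 1, KO 4, KO 7, KO 8 and KO 17, against 20.1, 25.7, 20.9, 19.6 and 22.4 RPKM in WT 2, WT 9, WT 19, WT 86 and WT 89. Each KO-labelled library lay below each WT library, as in 2.15% of all genes tested, with KO 17 and WT 86 close together at the border. Means were 14.0 ± 4.0 RPKM in KO-labelled and 21.7 ± 2.5 RPKM in WT libraries, and the log2 change of -0.66 (SE 0.17, 95% interval -1.04 to -0.28) missed the threshold at a limma adjusted p of 0.0509. Of the alternatives, 5 put it past the threshold: median-ratio scaling (log2 change -0.75, adjusted p = 0.0385), quantile normalization (-0.74, 0.0358), a filter at 1 RPKM (-0.66, 0.0443), and leaving out KO 4 (-0.73, 0.0456) or KO 17 (-0.78, 0.029). Over all 18 alternatives the log2 change stayed between -0.78 and -0.53 and the adjusted p between 0.029 and 0.108.

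The other KLF members were not called. Klf9, a factor of the later phase and of hormone responses, was the most abundant of the 4, at 41.8 to 67.4 RPKM in KO-labelled and 39.0 to 56.4 RPKM in WT libraries (log2 change 0.18, SE 0.15, limma adjusted p = 0.53). Klf4 was at 19.6 to 26.9 RPKM in KO-labelled and 20.7 to 23.1 RPKM in WT libraries (log2 change 0.11, SE 0.08, limma adjusted p = 0.467). Its WT values were the tightest of the 10 genes, with a coefficient of variation of 4.91%, against 12.5% in KO-labelled libraries. Klf5 was the rarest factor, at 0.682 to 2.01 RPKM in KO-labelled and 0.831 to 1.35 RPKM in WT libraries (log2 change 0.17, SE 0.20, limma adjusted p = 0.66). Between 18 and 62 reads per library stood behind the Klf5 values, and the 95% interval of its fitted ratio was 0.827 to 1.52. The log2 change of Klf5 was 0.05 without KO 7 and 0.32 without KO 8, and over the 18 alternatives that of Klf9 ran from 0.09 to 0.26 and that of Klf4 from 0.02 to 0.16. Klf15 made up 11.2% to 16.9% of the summed RPKM of the 4 KLF genes in KO-labelled and 22.1% to 25.4% in WT libraries, and the ratio of Klf15 to Klf9 was 0.205 to 0.283 in KO-labelled and 0.404 to 0.526 in WT libraries. The shares of Klf15 did not overlap between the groups, and the total of the 4 genes did, at 73.4 to 113.1 RPKM in KO-labelled and 80.7 to 103.8 RPKM in WT libraries. These shares and ratios were not tested, and they are built from Klf15 values that themselves did not overlap.

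**Figure D3:**
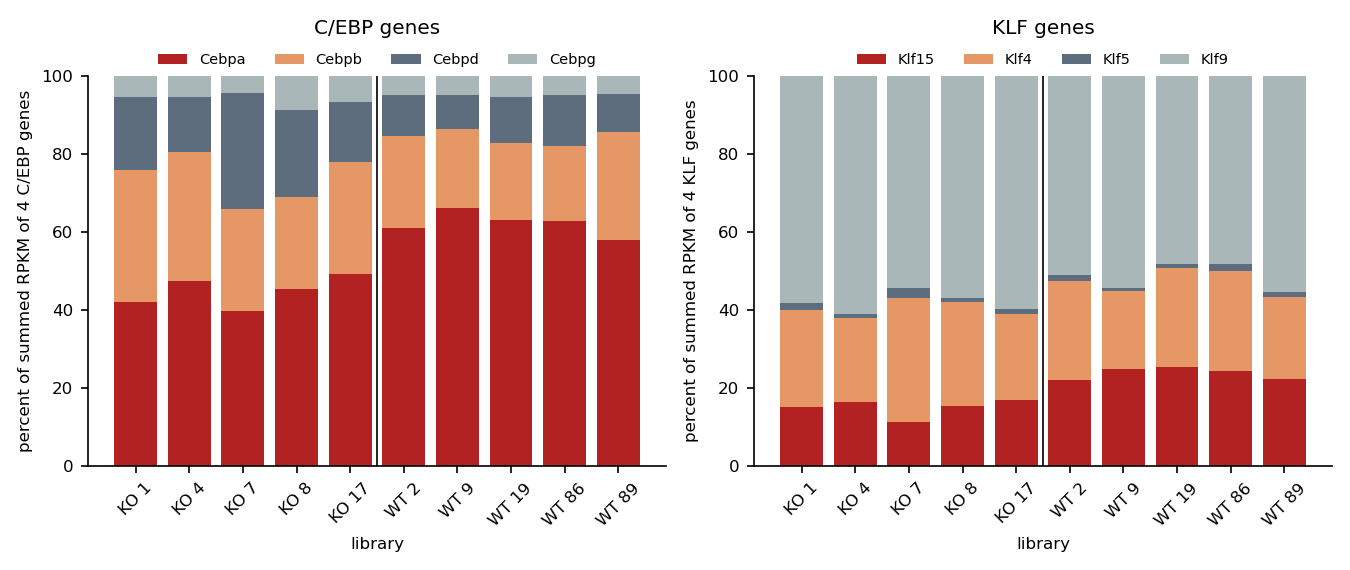
Share of each gene in the summed RPKM of the 4 C/EBP genes (left) and the 4 KLF genes (right), 1 bar per library with the KO-labelled libraries left of the line. The Cebpa share is 39.6% to 49.2% in KO-labelled and 57.95% to 66.2% in WT libraries, and the Klf15 share 11.2% to 16.9% and 22.1% to 25.4%.

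Neither EBF member passed the test. Ebf1 was at 8.54 to 11.9 RPKM in KO-labelled and 9.06 to 12.8 RPKM in WT libraries (log2 change -0.11, SE 0.12, limma adjusted p = 0.634). Ebf2, the beige precursor factor, was at 1.74 to 3.01 RPKM in KO-labelled and 2.05 to 3.03 RPKM in WT libraries, on 185 to 363 reads per library (log2 change -0.22, SE 0.14, limma adjusted p = 0.356). The groups overlapped in both genes, and over the alternatives the log2 change ran from -0.19 to -0.05 for Ebf1 and from -0.32 to -0.16 for Ebf2. Among 9 thermogenic genes linked to EBF2, 5 could be tested, none was called and 0 had an unadjusted limma p under 0.05 (median log2 change 0.05); Elovl3, an elongase of thermogenic fat, stayed under 0.5 RPKM in every library. Cox8b, a cytochrome oxidase subunit of brown fat, was at 20.4 ± 6.1 RPKM in KO-labelled and 16.7 ± 15.3 RPKM in WT libraries (log2 change 0.55, SE 0.40, limma adjusted p = 0.442), and without WT 86 it passed at 0.97 (adjusted p = 0.0243). Cox7a1, the muscle and brown fat form of another subunit, was at 5.5 ± 1.3 RPKM in KO-labelled and 6.3 ± 4.8 RPKM in WT libraries (limma adjusted p = 0.956). The largest difference of the 5 went the other way from Cox8b. It was that of Cidea, named after its values were seen, at 0.7 ± 1.1 RPKM in KO-labelled and 3.5 ± 4.2 RPKM in WT libraries (log2 change -1.44, SE 0.69, limma adjusted p = 0.225). WT 86 held the highest sum of the thermogenic list, 86.0 RPKM, against 14.7 to 23.3 in the other WT libraries and 22.6 to 49.7 in KO-labelled libraries.

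The order of the levels was nearly the same in both groups. By mean it ran Cebpa, Cebpb, Klf9, Cebpd, Klf4, Cebpg, Klf15, Ebf1, Ebf2, Klf5 in KO-labelled libraries, and Cebpa, Cebpb, Klf9, Cebpd, Klf15, Klf4, Cebpg, Ebf1, Ebf2, Klf5 in WT libraries. Klf15 was the gene that changed place, ranking 5 by mean in WT and 7 in KO-labelled libraries. Cebpb, Klf9 and Cebpd exchanged places 2 to 4 among the KO-labelled animals, so their order there was within the spread, and Cebpg, Klf15 and Ebf1 did so at places 6 to 8. Klf15 and Klf4 exchanged places 5 and 6 among WT animals. In WT tissue Cebpa stood above 99% of tested genes and Klf5 above 16.5%.

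Animals differed in several factors at once. KO 8 was the lowest of its group in 7 of the 10 genes, the exceptions being Cebpg, Klf15 and Ebf1. KO 17 was the highest of its group in 4 genes and KO 7 in 3, those being Cebpd, Klf4 and Klf5. Among WT libraries WT 9 was the highest in 5 genes, and WT 19 was the lowest in all 4 C/EBP genes. Without KO 8 the log2 change of Cebpa was -0.62 (adjusted p = 0.031) and that of Klf15 -0.59 (0.108).

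**Figure D4:**
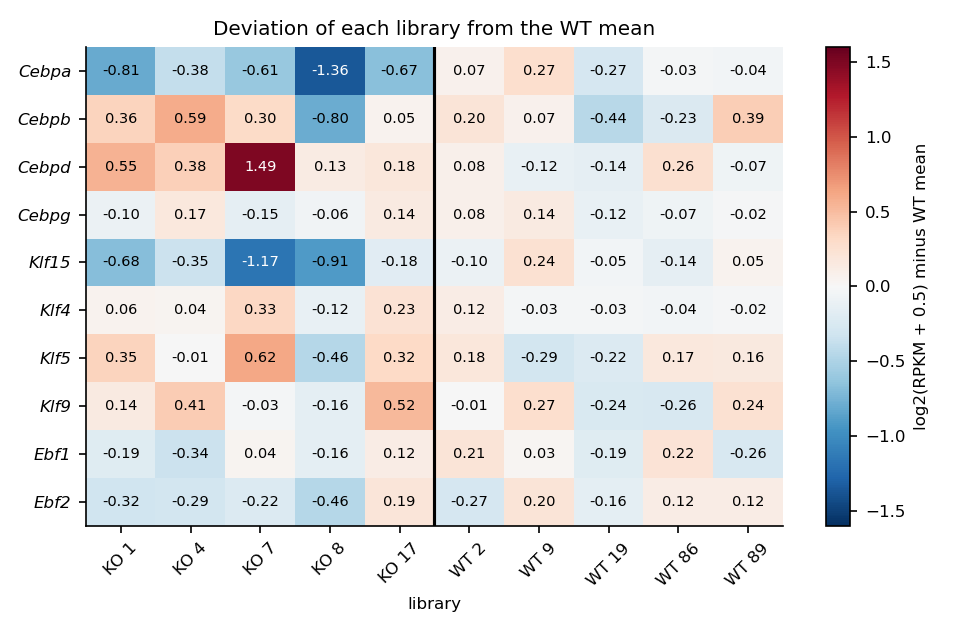
Log2(RPKM + 0.5) of each factor in each library minus the WT mean of that gene, KO-labelled libraries left of the line. KO 8 is the lowest in Cebpa at -1.36, KO 7 the highest in Cebpd at 1.49 and the lowest in Klf15 at -1.17.

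The deposited transcript table held 23 transcripts of the 10 genes, of which 20 were abundant enough to test. None was called in either direction, where 0.452% of the 44475 transcripts tested were called lower and 0.0922% higher; 3 of the 20 had an unadjusted p under 0.05, as had 9.44% of all transcripts tested. Cebpa, Cebpb, Cebpd, Klf5 and Klf9 had 1 transcript each in the table. The annotation given with the genes counted 2 for Cebpa, Cebpd and Klf5. It counted 5 for Klf15 and 4 for Cebpg, of which 2 each were listed. Shares are therefore of the listed transcripts. Cebpa-201 (ENSMUST00000042985), the protein-coding transcript, was at 59.6 to 108.7 RPKM in KO-labelled and 114.8 to 177.7 RPKM in WT libraries (log2 change -0.75, SE 0.17, limma adjusted p = 0.126). It had nearly the gene's own change and did not overlap between groups, and the share of all transcripts without overlap was not counted. Klf15-201 (ENSMUST00000032174) carried 93.3 ± 5.1% of the summed RPKM of the listed Klf15 transcripts in KO-labelled and 88.0 ± 13.1% in WT libraries. It was at 10.95 ± 3.33 RPKM in KO-labelled and 16.1 ± 3.7 RPKM in WT libraries (log2 change -0.55, SE 0.22, limma adjusted p = 0.473). The second listed Klf15 transcript, Klf15-202, was at 0.76 ± 0.49 RPKM in KO-labelled and 2.07 ± 2.13 RPKM in WT libraries.

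Use of transcripts within a gene was tested with limma's diffSplice in the 5 factors with at least 2 tested transcripts, and none passed over all genes, where 0.379% of 36953 transcripts did. Klf4 came nearest: Klf4-202 (ENSMUST00000129250) took 14.5 ± 14.0% of the gene in KO-labelled and 28.2 ± 9.1% in WT libraries, and was listed at 0 in KO 7 and at 9.95 RPKM in KO 4. The gene-level adjusted p from limma diffSplice was 0.395. Klf4-201 was at 19.96 ± 2.93 RPKM in KO-labelled and 17.7 ± 1.4 RPKM in WT libraries. The 2 listed transcripts of Cebpg were almost even, Cebpg-201 having 50.3 ± 6.2% of their sum in KO-labelled and 52.4 ± 4.5% in WT libraries (gene-level limma diffSplice adjusted p = 0.905). Ebf1 was spread over 7 transcripts. The noncoding Ebf1-207 was the largest at 24.1 ± 2.0% in KO-labelled and 21.5 ± 2.1% in WT libraries, followed by the coding Ebf1-201 at 19.3 ± 1.6% and 20.3 ± 3.0% in the same order of groups (gene-level adjusted p = 0.943). Of the other Ebf1 transcripts, Ebf1-205, Ebf1-202, Ebf1-204, Ebf1-203 and Ebf1-206 had means of 1.26 to 4.81 RPKM in KO-labelled and 0.907 to 5.07 RPKM in WT libraries, without a call. Ebf2-202 was at 1.43 ± 0.35 RPKM in KO-labelled and 2.09 ± 0.84 RPKM in WT libraries and Ebf2-203 at 1.20 ± 0.31 and 1.34 ± 0.43 RPKM, with the retained-intron form Ebf2-204 at 0.43 ± 0.20 and 0.56 ± 0.08 RPKM, again KO-labelled first (gene-level adjusted p = 0.816).

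Of 17 further C/EBP, KLF and EBF genes, 14 were abundant enough to test, and 1 was called, beside 5.95% of all genes tested. Their median log2 change was 0.10, beside 0.09 for all genes. Klf6, an immediate early KLF, was at 46.8 ± 4.5 RPKM in KO-labelled and 38.4 ± 1.4 RPKM in WT libraries (log2 change 0.28, SE 0.07, limma adjusted p = 0.0475). That call ended in 13 of 18 alternatives, among them both scalings, plain eBayes and the test with low genes kept. Leaving out KO 4 kept it, and leaving out any other single library ended it (0.24 to 0.29). Klf2, an endothelial KLF, was the most abundant of the list at 60.4 ± 11.4 RPKM in KO-labelled and 59.1 ± 5.9 RPKM in WT libraries (limma adjusted p = 0.956).

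Among 21 tested regulators of adipogenesis outside these families, 3 were called lower and 1 higher, with a median log2 change of -0.06. Of all genes tested, 1.95% were called lower and 4.00% higher. Pparg, the partner of Cebpa in the terminal phase, fell by 1.11 on the log2 scale (SE 0.11, adjusted p = 0.00026), Srebf1, a lipogenic factor, by 0.79 (SE 0.17, adjusted p = 0.0303), and Foxc2, a forkhead factor of fat, by 0.79 (SE 0.12, adjusted p = 0.00554). Foxc2 was at 0.37 ± 0.11 RPKM in KO-labelled and 1.00 ± 0.13 RPKM in WT libraries, near the pseudocount, so its change is understated. Its KO-labelled mean lay under the level of the filter on low values and its WT mean above it. Foxc2 thus entered the test through its WT libraries, and its call among the 3 lower genes depends on that admission. Stat5a, a signal transducer of growth hormone and prolactin, was at 10.3 ± 0.8 RPKM in KO-labelled and 8.05 ± 0.79 RPKM in WT libraries (log2 change 0.34, SE 0.08, adjusted p = 0.0321). The Srebf1 call ended without KO 1, KO 7, KO 8, KO 17, WT 19 or WT 89 (log2 changes of -0.82 to -0.73), and when low genes were kept in the test. The Stat5a call ended under both scalings, when low genes were kept, and without KO 1, KO 7, KO 8, WT 2, WT 9, WT 19 or WT 89 (0.31 to 0.36). Both scalings called 4 of the 21 lower and none higher.

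Genes with known C/EBP sites in adipocytes were lower almost throughout: 11 of 12 were called lower and none higher, beside 1.95% and 4.00% of all genes tested. Their median log2 change was -1.16 beside 0.09 for all genes (10 called lower with quantile normalization). This list was drawn up with earlier results of these data known and is not independent evidence of a direction. The 7 adipocyte markers had a median of -1.21 with 6 called lower. Whether the fall was particular to genes with C/EBP sites was not tested, because the markers were not checked for such sites. Adipoq and Lep belong to both lists, and Pparg is also among the regulators above. The largest falls in the list of C/EBP sites were those of Scd1, the stearoyl-CoA desaturase (log2 change -3.54), and Pck1 of glyceroneogenesis (-3.12). Next came the beta-3 adrenergic receptor gene Adrb3 (-2.92) and the resistin gene Retn (-2.37). All 4 exceeded the fall of Cebpa itself on the same scale. The call of Insr, the insulin receptor gene, named after its values were seen, rested on a log2 change of -0.26 (SE 0.06, limma adjusted p = 0.0444). That call ended in 11 of 18 alternatives, among them plain eBayes and the test with low genes kept. The member without a call was Lep, leptin, named after its values were seen, at 27.7 ± 18.3 RPKM in KO-labelled and 49.7 ± 17.8 RPKM in WT libraries (log2 change -1.01, SE 0.45, limma adjusted p = 0.196). Slc2a4 stands both in the list of C/EBP sites and among the genes linked to KLF15. Of 6 tested genes linked to KLF15, 4 were called lower, beside 1.95% of all genes, with a median of -0.87. They were Slc2a4, the insulin-responsive glucose transporter (log2 change -1.01, SE 0.16), Acss2, an acetyl-CoA synthetase (-0.96, SE 0.18), Gpt, alanine aminotransferase (-0.88, SE 0.17), and Bcat2, the branched-chain aminotransferase (-0.60, SE 0.11), at limma adjusted p-values of 0.00645, 0.0149, 0.0193 and 0.0116.

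**Figure D5:**
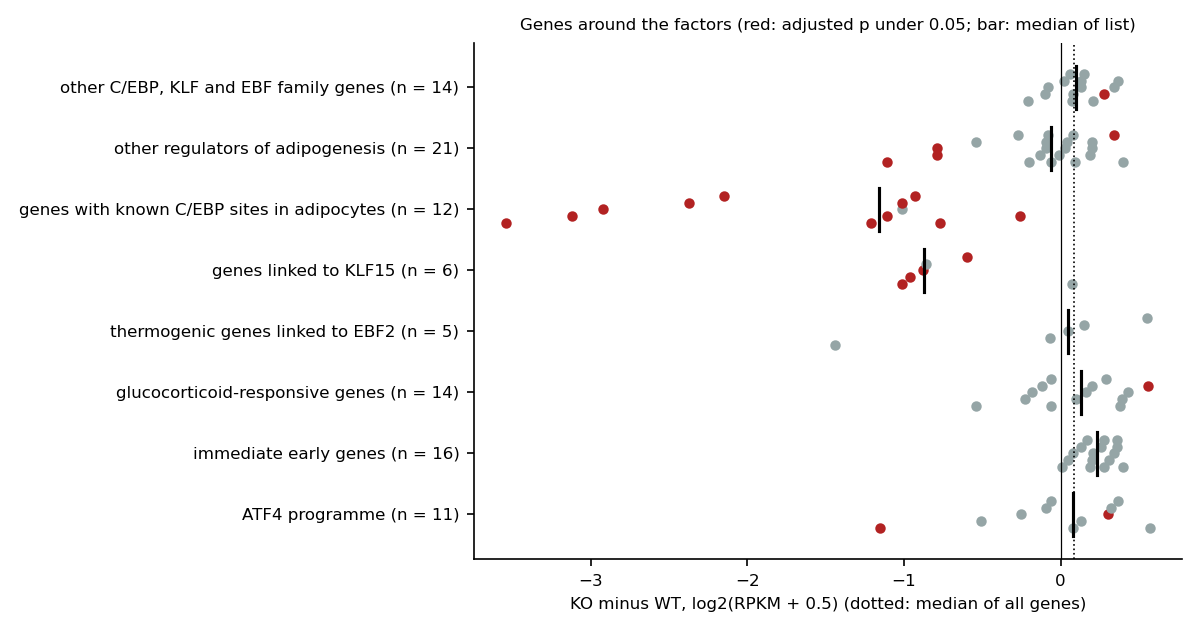
Log2 change, KO-labelled minus WT, of each tested gene in 8 lists around the factors; red points are called genes, the bar is the list's median and the dotted line the median of all genes. Among these 8 lists, called falls are concentrated in those of C/EBP-site and KLF15-linked genes, whose medians are -1.16 and -0.87. The 7 adipocyte markers, not drawn here, had a median of -1.21 with 6 called lower, so such falls were not particular to these 2 lists.

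Lists of genes that respond to signals acting on the early factors are given beside the 5.95% of all genes called in either direction. Of 14 glucocorticoid-responsive genes, 1 was called higher (median log2 change 0.13): Angptl4, which encodes an inhibitor of lipoprotein lipase and also responds to PPARs, at 84.6 ± 4.2 RPKM in KO-labelled and 57.8 ± 9.6 RPKM in WT libraries (log2 change 0.56, SE 0.11, limma adjusted p = 0.0175). The metallothionein genes Mt1 and Mt2 had log2 changes of -0.18 and -0.12 without a call. None of 16 immediate early genes was called and 1 had an unadjusted p under 0.05 (median 0.23); Junb was at 87.4 ± 21.3 RPKM in KO-labelled and 68.1 ± 16.8 RPKM in WT libraries, and Zfp36 at 61.6 ± 25.8 and 48.5 ± 11.6 RPKM in the same order. In the ATF4 programme, in which C/EBPg is a partner, 1 gene was lower and 1 higher of 11 (median 0.08). Phgdh, the first enzyme of serine synthesis, fell by 1.15 (SE 0.17, adjusted p = 0.00466), at 2.55 ± 0.81 RPKM in KO-labelled and 6.12 ± 0.67 RPKM in WT libraries. Psat1, the next enzyme of that pathway, had a log2 change of 0.30 (SE 0.08, adjusted p = 0.0458), a call that ended under both scalings, with plain eBayes, when low genes were kept and without any 1 library (0.26 to 0.34).

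The genes whose level followed Cebpa most closely over the 10 libraries were Mrps6, a mitochondrial ribosomal protein, Gnai1, an inhibitory G protein subunit, and Hacd2, a dehydratase of fatty acid elongation. Likeness was the root mean square difference of log2 values centred on each gene's mean, over 11317 genes of at least 2 RPKM, and came to 0.154 for Mrps6, 0.167 for Gnai1 and 0.195 for Hacd2. Their log2 changes were -0.80, -0.65 and -0.71, against -0.77 for Cebpa. Because likeness was taken over both groups together, changes near that of Cebpa follow from the choice. Mrps6 averaged 11.5 ± 1.4 RPKM in KO-labelled and 20.4 ± 1.7 RPKM in WT libraries.

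Markers of other cell types and of adipocytes were summed in each library to stand beside these values. The summed RPKM of 7 adipocyte markers was 769.9 to 1068 in KO-labelled and 2081 to 2924 in WT libraries, and KO 8 had the lowest sum, as it had the lowest Cebpa. In tissue RNA, fewer cells of a type and less RNA per cell cannot be told apart. The 8 monocyte and neutrophil markers summed to 462.0 to 852.9 RPKM in KO-labelled and 197.7 to 398.9 RPKM in WT libraries, KO 8 being at 849.5, with 3 of 8 called higher (2 under median-ratio scaling), and Cebpb and Cebpd are also genes of such cells. The 10 progenitor and fibroblast markers, of cells that carry Ebf1 and Ebf2, summed to 2121 to 2402 RPKM in KO-labelled and 1698 to 2266 RPKM in WT libraries, with 2 called higher (0 under median-ratio and 1 under quantile scaling). Sums of the 7 epithelial markers were 23.2 to 35.96 RPKM in KO-labelled and 19.7 to 29.8 RPKM in WT libraries, with none of 5 tested called and Krt5 under 0.5 RPKM in every library. Endothelial markers had 1 of 7 lower, smooth muscle and pericyte markers 2 of 8 lower, and mast cell markers 3 higher and 1 lower of 5 (2 and 1 under both scalings). Over all genes tested, 4.00% were called higher and 1.95% lower. None was called among 8 macrophage, 6 mesothelial, 6 tested T and B lymphocyte and 4 erythroid markers, of which 4, 2, 0 and 0 had an unadjusted p under 0.05, beside 24.7% of all genes. The part of any of these cell types in the factors' values was not tested.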

How the data were processed

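RPKM values per gene and per transcript were made and deposited by the authors, and the unit comes from the names of their tables. The submitters' processing notes name bcl2fastq, STAR 2.0.4b1, Subread and featureCounts 1.4.52, without roles. The build, annotation, strandedness and transcript quantifier are not given in the sources used. In GENCODE M21, Cebpa, Cebpb, Cebpd and Ebf2 overlap Gm45091, Tmem189, Spidr and Gm10860 on the other strand, and Cebpg overlaps Gm45095 on the other and Gm44836 on the same strand, so the values of these 5 factors are uncertain to that extent. Repeated identifiers held equal values and were used once, leaving 40503 genes and 84046 transcripts.

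Library sizes and reads per factor were worked out from the RPKM values, as the common step of low genes with M21 exon lengths; 64.4% to 65.0% of genes above 0 came out whole within 0.01 reads in each library. For the factors, the length that made reads whole in all 10 libraries was used. The groups follow the titles, with the animal numbers naming libraries. Whether the animals shared litters or handling days is not stated, and p-values measure the spread between these libraries.

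Genes with at least 0.5 RPKM in at least 5 libraries were fitted as log2(RPKM + 0.5) with limma 3.58.1 in R 4.3.3 (eBayes with trend and robust, statmod 1.5.0), 2-sided, with Benjamini-Hochberg adjustment; fold changes on this scale understate low genes. Transcripts were fitted in the same way. The fit was tested on simulated data. The factors, gene lists, motifs and tests were chosen with earlier results of these data known. Genes named are the 10 factors, Med19, transcripts of at least 0.5 RPKM in either group, up to 4 called genes with the largest change per list (or the most abundant 2 where fewer than 2 were called), and the 3 genes nearest to each called factor. Lep, Insr, Cidea, Elovl3 and Krt5 were named outside this rule. Promoter windows are RefSeq's, GRCm38.p6. Alternatives were no filter or one at 1 RPKM, pseudocounts of 0.1 and 1, 2 scalings, plain eBayes, array weights and leaving out each library.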

Additional observations from a re-analysis of the deposited data

Results flagged for a closer look

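Each factor, Med19 and the ratios of Cebpa to Cebpb and of Klf15 to Klf9 were examined in each group of 5 for a library far from the others, 26 sets in all, of which chance would mark about 1 in 20. Cebpd in KO 7 was at 91.4 RPKM, against 35.3 to 47.1 RPKM in the other 4 KO-labelled libraries, and the gap took up 0.789 of the group's range. Klf4 in WT 2 was at 23.1 RPKM, against 20.7 to 21.0 RPKM in the other WT libraries, a gap of 0.897 of a narrow range.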

How the results depend on the processing

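No paired analysis was run, because the labels give no pairing of KO-labelled and WT animals. The number of factors called lower, 1 of 10, became 0 with no filter on low values and 2 with a filter at 1 RPKM, median-ratio scaling or quantile normalization, and 0 to 2 when single libraries were left out. No factor and no transcript of one was called higher, and no transcript lower, in the alternatives run. Over all genes, the 681 called higher became 292 with no filter, 103 with median-ratio scaling, 149 with quantile normalization and 188 to 689 with single libraries left out. The 332 called lower became 247 with no filter, 417 with median-ratio scaling, 392 with quantile normalization and 206 to 314 with single libraries left out. Leaving out single libraries moved the log2 change of Cebpb between -0.02 and 0.33 and that of Cebpg between -0.04 and 0.04, and the difference in mean Med19 between -0.21 and 0.40 RPKM, an alternative chosen after seeing the data; 0 lay within the 95% interval of each of these with all libraries. The other 8 factors kept their sign in all 18 alternatives. Klf5 had the fewest reads, 18 to 62 per library. The cause of these dependences was not tested.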
